A study of Mus musculus with 8 samples.

Results

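The 40 genes described here run the mitotic spindle and its checkpoint in mouse cells: spindle checkpoint proteins, mitotic kinases with the chromosomal passenger complex, centromere and kinetochore proteins, and the factors that start mitosis and release the chromatids. The study followed chromatin in PB3 cells (mouse breast cancer, labelled Er-/Pr-/Her2-) with ATAC-seq, which reads open DNA from the places where a transposase inserts. Consensus regions of the deposited count table were assigned to the nearest protein-coding gene body, inside it or within 50 kb, and counts were summed per gene. In this way 37 of the 40 genes had at least 1 region, with 78 regions of 57417 in all. A region within 1 kb of an annotated start (of either gene end where no start was known) is called a promoter region, and the others distal. Of the 78 regions, 41 were promoter and 37 distal, with 25 genes having promoter regions only and 12 having both kinds.

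The untreated line PB3-Parental was compared with 3 derivatives raised against microtubule drugs, PB3-ERI-R (eribulin), PB3-PAC-R (paclitaxel) and PB3-VIN-R (vinorelbine), each exposed to 300, 500 and 800 nM of its drug. All 4 lines carry the labelled receptor status and were grown in the same serum-supplemented medium. The labels speak of resistant clones, so each derivative may stand for 1 selected clone, and whether the drug was present at harvest is not given in the sources used here. There were 2 libraries per line. Whether the 2 came from separate cultures is not stated, and p-values therefore measure just the spread between libraries, which may be technical.

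Eribulin and vinorelbine keep tubulin from assembling, and paclitaxel stabilises microtubules. All of them disturb attachment of chromosomes to the spindle. A kinetochore without proper attachment recruits Mad1l1, Mad2l1, Bub1b and Bub3, which hold back Cdc20, the activator of the anaphase-promoting complex. Once the checkpoint is satisfied, that complex marks cyclin B and securin (Pttg1) for destruction, separase (Espl1) opens cohesin, and the chromatids part. Aurkb, Birc5, Incenp and Cdca8 form the chromosomal passenger complex, which corrects faulty attachments. Many of these genes are transcribed late in the cell cycle from promoters that carry CCAAT boxes and the cell cycle homology element, with the letters TTTGAA or TTTAAA.

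Libraries held 10521964 to 24052237 counts. Values below are CPM, counts brought to a common library total with TMM scaling, and 3 counts correspond to 0.138 to 0.325 CPM of a locus, the summed regions of a gene. Of 18 marker genes of cell type, 15 had a region. In PB3-ERI-R 5 of these rose and 6 fell. Pgr, the progesterone receptor, had none, as had Cd3e and Cdh5, while the locus of the oestrogen receptor Esr1 was open, at 87.3 CPM in PB3-Parental and 49.2 in PB3-ERI-R. That of Erbb2, the gene of Her2, was at 38.0 and 70.1 CPM. An open locus is not expression, so these values do not test the receptor labels. The leukocyte markers, 3 of 4 with a region, summed to 12.3 CPM in PB3-ERI-R, against 79.8 (PB3-VIN-R), 65.6 (PB3-PAC-R) and 64.5 (PB3-Parental); the part of other cells in the results was not tested.

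Promoter sequences of 33 of the 40 genes were found in RefSeq (GRCm38.p6). Shown are the 250 bases before the start, read 5′ to 3′ on the strand of the gene, for the 3 genes with the smallest adjusted p in PB3-ERI-R in either of 2 tests given below (Mad1l1 and Bub1b in that of promoter against distal change, Cenpa in that of promoter sums) and for Ccnb1 (cyclin B1), Cdc20 and Plk1 (polo-like kinase 1), late cell cycle genes that serve as a reference. Capitals mark CCAAT and the elements TTTGAA and TTTAAA on either strand, so that ATTGG is CCAAT on the other strand.
Mad1l1: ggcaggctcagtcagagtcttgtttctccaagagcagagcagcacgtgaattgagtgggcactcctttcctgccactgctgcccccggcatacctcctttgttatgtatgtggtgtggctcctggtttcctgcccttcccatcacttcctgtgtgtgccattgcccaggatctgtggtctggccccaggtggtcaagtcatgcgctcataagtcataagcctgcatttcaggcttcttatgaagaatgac
Bub1b: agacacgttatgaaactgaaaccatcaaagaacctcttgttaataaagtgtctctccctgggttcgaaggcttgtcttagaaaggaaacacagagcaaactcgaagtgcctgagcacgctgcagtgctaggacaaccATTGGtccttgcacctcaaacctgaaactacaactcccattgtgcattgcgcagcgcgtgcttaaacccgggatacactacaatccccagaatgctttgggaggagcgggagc
Cenpa: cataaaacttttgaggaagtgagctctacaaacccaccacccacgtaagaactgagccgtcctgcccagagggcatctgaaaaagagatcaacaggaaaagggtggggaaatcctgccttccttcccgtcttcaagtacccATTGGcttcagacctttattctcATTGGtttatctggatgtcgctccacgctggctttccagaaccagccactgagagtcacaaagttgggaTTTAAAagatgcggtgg
Ccnb1: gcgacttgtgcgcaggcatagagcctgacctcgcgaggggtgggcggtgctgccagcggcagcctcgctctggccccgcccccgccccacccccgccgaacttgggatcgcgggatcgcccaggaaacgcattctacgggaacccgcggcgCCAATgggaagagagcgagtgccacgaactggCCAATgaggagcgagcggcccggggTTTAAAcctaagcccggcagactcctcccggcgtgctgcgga
Cdc20: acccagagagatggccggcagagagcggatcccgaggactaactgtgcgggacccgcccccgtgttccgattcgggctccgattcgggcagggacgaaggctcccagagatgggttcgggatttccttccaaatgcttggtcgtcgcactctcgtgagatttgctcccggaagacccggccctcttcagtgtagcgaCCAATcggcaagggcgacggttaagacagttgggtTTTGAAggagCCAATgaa
Plk1: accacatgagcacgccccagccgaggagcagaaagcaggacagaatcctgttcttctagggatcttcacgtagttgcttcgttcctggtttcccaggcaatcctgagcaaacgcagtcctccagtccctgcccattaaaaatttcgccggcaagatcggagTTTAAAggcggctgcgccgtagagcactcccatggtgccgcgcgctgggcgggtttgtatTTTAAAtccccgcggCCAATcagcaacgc
The Mad1l1 entry, at chr5:140174919-140175168 on the minus strand, belongs to an annotated start inside the gene and holds none of the marked letters. Its outer start lies in a region nearest to the neighbouring gene Nudt1 and is not part of the Mad1l1 values. Bub1b (chr2:118597961-118598210, plus strand) holds 1 CCAAT. Cenpa (chr5:30666636-30666885, plus strand) holds 2, with TTTAAA beginning 17 bases before the start. In Ccnb1 (chr13:100786487-100786736, minus strand) TTTAAA begins 42 bases before the start, and in Cdc20 (chr4:118437344-118437593, minus strand) TTTGAA begins 18 bases before it. Plk1 (chr7:122159185-122159434, plus strand) has 2 copies of TTTAAA, beginning 89 and 29 bases before the start.

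Among the 29 genes whose start lay in a region of their own, 14 (48.3%) held TTTGAA or TTTAAA in these 250 bases on either strand. The share over all 8334 protein-coding genes with such a start was 17.5%. CCAAT was present in 62.1% of the 29 and in 39.6% of the 8334. GGCGG, a core of GC boxes, was present in 82.8% and 83.8%. TTTAAA reads the same on both strands, and no other pair of these motifs overlaps in full. A match describes the letters only and is no evidence of binding.

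Promoters of these genes were open in every line. Of the 41 promoter regions, 38 overlapped a deposited peak in all 4 lines, 1 in PB3-ERI-R only and 1 in all lines but PB3-ERI-R. Of the distal regions, 6 of 37 overlapped a peak in all 4 lines, 10 in PB3-ERI-R only and 8 in all lines but PB3-ERI-R. Peak overlap was not counted over all promoter or distal regions, so these counts have no background beside them. Per kb of promoter region, the median over the 37 genes was 51.3 CPM in PB3-Parental against 44.2 over all 10926 genes with promoter regions, and 24 of the 37 lay above the latter. The order ran from 18.9 CPM per kb for Cenpe, a kinetochore motor, to 116 for Cenpf, a large kinetochore protein. In the resistant lines the median of the 37 was 56.7 (PB3-ERI-R), 50.3 (PB3-PAC-R) and 52.2 (PB3-VIN-R) CPM per kb.

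The comparison of PB3-ERI-R with PB3-Parental asks where the eribulin line had changed chromatin at these genes. At 17 of 37 loci accessibility differed at an adjusted p under 0.05 (edgeR quasi-likelihood test, Benjamini-Hochberg over all 14970 loci), 14 higher and 3 lower. Over all loci 58.3% were called, 27.9% higher and 30.3% lower, so the share among these genes, 45.9%, was no larger than that of the genome. All changes are given as log2 fold changes ± SE. The median over the 37 was 0.18, beside -0.004 over all loci, and 28 of the 37 changed by less than 0.5. The largest gains were at Mad1l1, Cenpa, Birc5 and Bub1b, and the losses at Nuf2, Mad2l2 and Incenp. Scaling set the number and the split of calls: with factors taken from single regions, which raise the median of all loci to 0.28, 26 were called, 24 higher and 2 lower. The share of all loci called with these factors is not given here, so the 26 have no background beside them. Without the second PB3-Parental library 10 loci were called, and without the first PB3-ERI-R library 9.

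**Figure D1:**
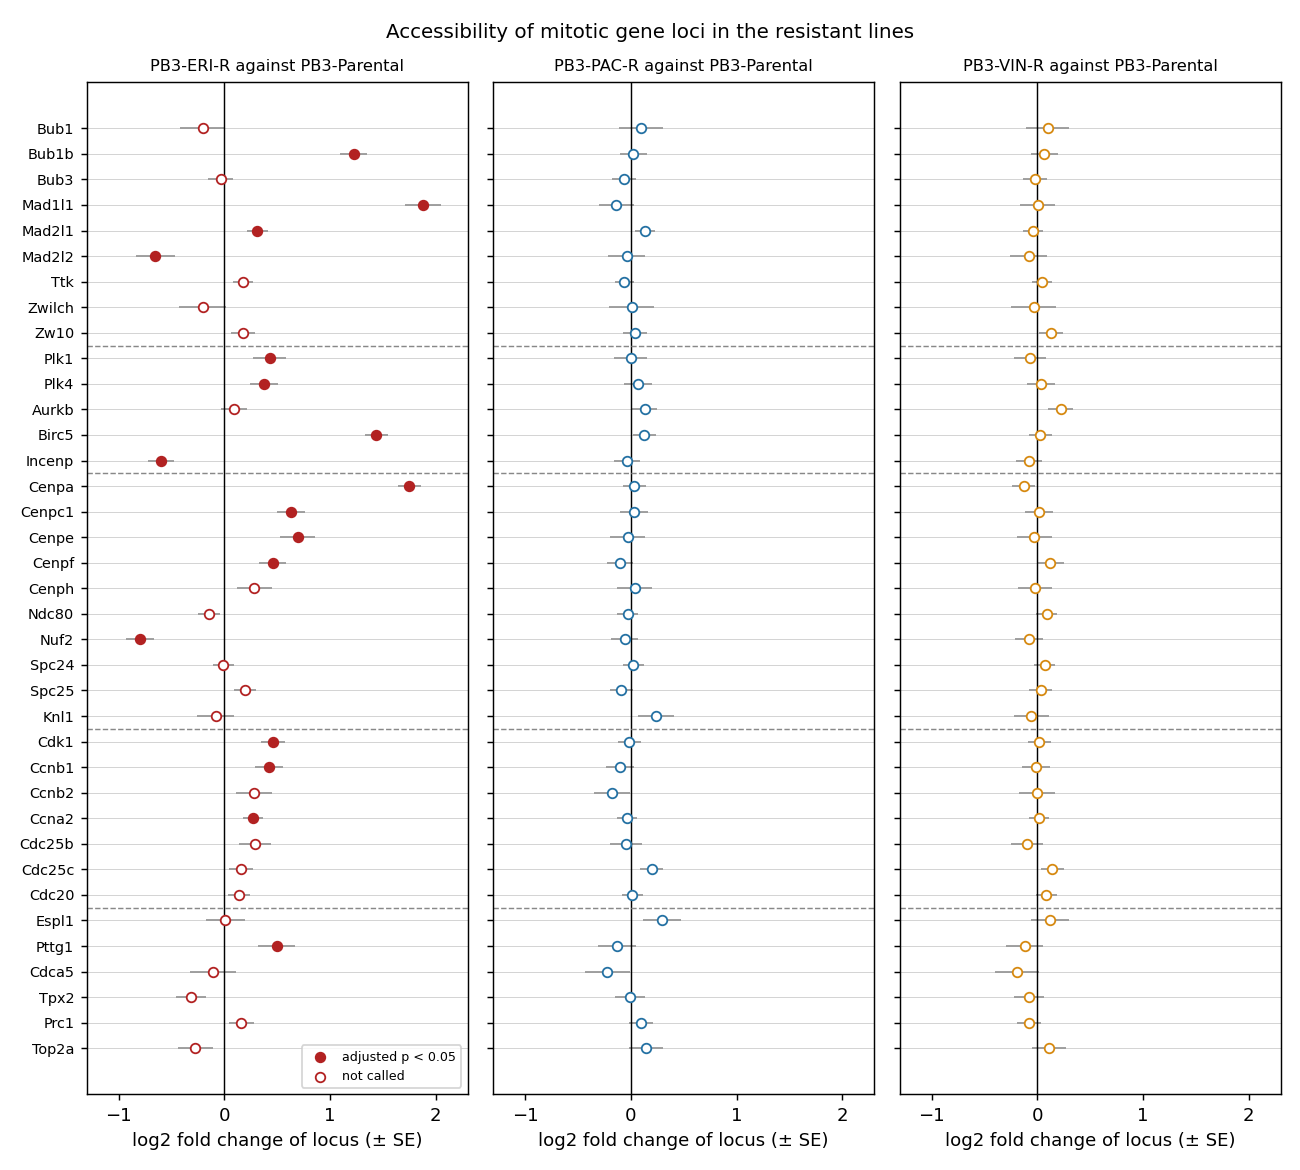
Log2 fold change of each of the 37 loci (x axis, bars ± SE) in the 3 resistant lines against PB3-Parental, with genes in rows grouped by role between dashed lines and filled points for adjusted p under 0.05. In PB3-ERI-R 17 points are filled and range from -0.80 to 1.88, and in the other lines none is filled and all lie between -0.22 and 0.30.

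In the spindle checkpoint group 4 of 9 loci (44.4%, beside 58.3% of all loci) changed, 3 up and 1 down. Bub1b, the kinase-like checkpoint protein BubR1, measured 33.4 and 28.1 CPM in PB3-Parental, 74.6 and 68.9 in PB3-ERI-R, 30.9 and 31.6 in PB3-PAC-R and 32.6 and 31.8 in PB3-VIN-R. Both PB3-ERI-R libraries were far above the other 6, and the locus rose by 1.22 ± 0.13 (adjusted p = 1.26e-05). Mad1l1, which carries Mad2l1 to unattached kinetochores, measured 178 and 146 CPM in PB3-Parental, 685 and 508 in PB3-ERI-R, 153 and 142 in PB3-PAC-R and 180.3 and 145 in PB3-VIN-R. The eribulin libraries stood clear of the other 6 and the locus rose by 1.88 ± 0.17 (adjusted p = 4.42e-06). Mad2l1, which binds Cdc20 and blocks it, had 75.7 and 74.1 CPM in PB3-Parental, 92.3 and 93.6 in PB3-ERI-R, 79.3 and 85.2 in PB3-PAC-R and 69.1 and 76.5 in PB3-VIN-R, and rose by 0.31 ± 0.10 (adjusted p = 0.0186). The PB3-ERI-R libraries were the highest, but the second PB3-PAC-R library came close.

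Mad2l2, the relative of Mad2l1 that inhibits the Cdh1 form of the anaphase-promoting complex and acts in DNA repair, went the other way. It measured 46.3 and 61.7 CPM in PB3-Parental, 30.9 and 37.9 in PB3-ERI-R, 48.6 and 56.4 in PB3-PAC-R and 44.9 and 57.3 in PB3-VIN-R. Its PB3-ERI-R libraries were the lowest of the 8, with a log2 fold change of -0.65 ± 0.18 (adjusted p = 0.01). Bub1, the kinase that docks the checkpoint at kinetochores, had 14.2 and 17.5 CPM in PB3-Parental, 12.6 and 14.9 in PB3-ERI-R, 16.3 and 17.5 in PB3-PAC-R and 14.6 and 19.3 in PB3-VIN-R, and PB3-ERI-R overlapped PB3-Parental (-0.20 ± 0.21, adjusted p = 0.442). Ttk, the kinase Mps1 at the top of the checkpoint, had 65.6 and 65.0 CPM in PB3-Parental, 73.0 and 74.6 in PB3-ERI-R, 62.9 and 62.3 in PB3-PAC-R and 68.0 and 66.7 in PB3-VIN-R. Its eribulin libraries were slightly above the rest, and the difference missed the threshold (0.18 ± 0.09, adjusted p = 0.129). Bub3, Zwilch and Zw10, the last 2 parts of the complex that brings dynein to kinetochores, had log2 fold changes of -0.03, -0.21 and 0.17 and were not called. The Zwilch promoter region also serves Rpl4, so its counts cannot be told apart from those of that neighbour.

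Among mitotic kinases and passenger proteins 4 of 5 measured loci changed, 3 up and 1 down, beside 58.3% of all loci. Birc5, the passenger protein survivin, measured 46.4 and 50.5 CPM in PB3-Parental, 137 and 125 in PB3-ERI-R, 50.2 and 55.6 in PB3-PAC-R and 50.9 and 48.0 in PB3-VIN-R. Both PB3-ERI-R libraries were far above the other 6, whose ranges overlapped, and the rise was 1.44 ± 0.11 (adjusted p = 1.21e-06). Incenp, the scaffold of the passenger complex, measured 179.8 and 168 CPM in PB3-Parental, 121 and 108 in PB3-ERI-R, 176 and 164 in PB3-PAC-R and 183 and 147 in PB3-VIN-R. It was lowest in the 2 PB3-ERI-R libraries and fell, with a log2 fold change of -0.60 ± 0.12 (adjusted p = 0.0017). Plk1 had 38.2 and 44.3 CPM in PB3-Parental, 64.4 and 46.6 in PB3-ERI-R, 40.6 and 41.9 in PB3-PAC-R and 39.4 and 39.3 in PB3-VIN-R. The first PB3-ERI-R library was well above the second, which lay just over the highest PB3-Parental value, and the locus was called (0.43 ± 0.16, adjusted p = 0.0355).

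Plk4, the kinase that sets centriole number, rose by 0.37 ± 0.13 (adjusted p = 0.0342). Aurkb, the kinase of the passenger complex, had 38.1 and 43.4 CPM in PB3-Parental, 41.6 and 45.3 in PB3-ERI-R, 42.9 and 46.3 in PB3-PAC-R and 48.3 and 46.7 in PB3-VIN-R. The PB3-ERI-R and PB3-Parental libraries overlapped, with a difference of 0.09 ± 0.12 (adjusted p = 0.541), and the PB3-VIN-R pair was the highest of the 8. Aurka, the spindle pole kinase, Cdca8 (borealin) and Cenpk had no region of their own because the region at their start lies nearer to Cstf1, 9930104L06Rik and Ppwd1. On the scale of single regions the one at the Aurka start measured 37.7 and 45.4 CPM in PB3-Parental and 65.0 and 61.8 in PB3-ERI-R. Those at Cdca8 (30.8 and 35.4 against 36.3 and 42.3) and Cenpk (28.9 and 37.5 against 39.9 and 47.1) were also higher in PB3-ERI-R, and for none of these was a test attributed to the gene. On that scale the median over all promoter regions was itself 0.36 higher in PB3-ERI-R, in log2.

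Centromere and kinetochore loci changed in 5 of 10 cases, 4 up and 1 down, again beside 58.3% of all loci. Cenpa, the histone H3 variant that marks centromeres, measured 38.2 and 41.0 CPM in PB3-Parental, 136 and 131 in PB3-ERI-R, 39.6 and 41.4 in PB3-PAC-R and 38.7 and 33.8 in PB3-VIN-R. The PB3-ERI-R pair was far above every other library, with a rise of 1.75 ± 0.11 (adjusted p = 3.86e-07). Cenpc1, which reads Cenpa chromatin and anchors the kinetochore, had 53.1 and 60.0 CPM in PB3-Parental, 86.0 and 89.2 in PB3-ERI-R, 55.5 and 60.4 in PB3-PAC-R and 50.1 and 64.3 in PB3-VIN-R. Its PB3-ERI-R values were the 2 highest of the 8 and it rose by 0.63 ± 0.13 (adjusted p = 0.00196). Cenpe had 22.4 and 26.8 CPM in PB3-Parental, 35.4 and 44.2 in PB3-ERI-R, 23.8 and 24.4 in PB3-PAC-R and 23.1 and 25.2 in PB3-VIN-R. Here too both eribulin libraries exceeded all others, and the rise was 0.69 ± 0.16 (adjusted p = 0.00386).

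Cenpf measured 99.4 and 78.3 CPM in PB3-Parental, 127 and 117 in PB3-ERI-R, 87.7 and 77.7 in PB3-PAC-R and 98.8 and 95.0 in PB3-VIN-R. The eribulin values were the highest, the PB3-Parental libraries differed clearly from each other, and the rise was 0.46 ± 0.13 (adjusted p = 0.00917). Nuf2 and Ndc80 form the microtubule-binding end of a kinetochore complex, and Spc24 and Spc25 its inner end. Nuf2 had 119 and 119.6 CPM in PB3-Parental, 61.3 and 75.9 in PB3-ERI-R, 102 and 126 in PB3-PAC-R and 118 and 108 in PB3-VIN-R. It was clearly lowest in PB3-ERI-R, with a log2 fold change of -0.80 ± 0.13 (adjusted p = 0.000437). Ndc80 had 54.8 and 55.8 CPM in PB3-Parental, 48.4 and 51.6 in PB3-ERI-R, 53.5 and 54.9 in PB3-PAC-R and 59.3 and 58.3 in PB3-VIN-R. Its PB3-ERI-R libraries were lower by little (-0.14 ± 0.10, adjusted p = 0.253), and its promoter region also serves Spdya. Spc24, Spc25, Cenph and Knl1 had log2 fold changes from -0.08 to 0.28 and were not called. Of the 4 subunits of that complex Nuf2 passed the test and the other 3 did not, and the difference between subunits was not tested.

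The 7 loci of mitotic entry and anaphase onset were all higher in PB3-ERI-R by 0.14 to 0.46 in log2, and 3 of them (42.9%, beside 58.3% of all loci) passed the test. With window medians as offsets Cdc20 was lower, at -0.13, and without regions beyond 10 kb Cdk1 was, at -0.02. The Cdc20 window median of 0.27 is on the scale of single regions, on which Cdc20 itself rose by 0.42. Cdk1, the kinase that drives mitosis, had 63.2 and 55.7 CPM in PB3-Parental, 84.4 and 79.4 in PB3-ERI-R, 60.9 and 56.9 in PB3-PAC-R and 63.8 and 56.7 in PB3-VIN-R. Both eribulin libraries exceeded the other 6, and the rise was 0.46 ± 0.11 (adjusted p = 0.00462). Ccnb1 had 41.2 and 36.3 CPM in PB3-Parental, 54.7 and 49.0 in PB3-ERI-R, 38.2 and 34.0 in PB3-PAC-R and 40.3 and 36.5 in PB3-VIN-R. It again was highest in the eribulin pair and rose by 0.42 ± 0.13 (adjusted p = 0.0188). Ccna2 (cyclin A2), whose promoter region also serves Bbs7, rose by 0.27 ± 0.09 (adjusted p = 0.032).

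Cdc20 had 55.5 and 55.5 CPM in PB3-Parental, 58.5 and 64.0 in PB3-ERI-R, 54.2 and 58.0 in PB3-PAC-R and 59.0 and 58.8 in PB3-VIN-R. Both PB3-ERI-R libraries lay above both of PB3-Parental, by 0.14 ± 0.10 (adjusted p = 0.272), and the locus was not called. Ccnb2 (cyclin B2) and the phosphatases Cdc25b and Cdc25c, which switch Cdk1 on, changed by 0.28, 0.29 and 0.16 and were not called. Among the 6 genes of cohesion, separation and spindle, Pttg1 (securin) alone was called (16.7%, beside 58.3% of all loci), at 0.49 ± 0.18 (adjusted p = 0.0341). Espl1 (separase) had 28.6 and 27.0 CPM in PB3-Parental, 23.9 and 32.3 in PB3-ERI-R, 32.8 and 35.6 in PB3-PAC-R and 26.6 and 33.9 in PB3-VIN-R. The PB3-ERI-R and PB3-Parental libraries overlapped (0.01 ± 0.18, adjusted p = 0.974), and both PB3-PAC-R libraries lay above those 4. Top2a, the topoisomerase that untangles sister DNA, had 32.5 and 39.3 CPM in PB3-Parental, 27.0 and 32.5 in PB3-ERI-R, 35.1 and 44.3 in PB3-PAC-R and 39.5 and 38.0 in PB3-VIN-R. The difference was -0.27 ± 0.17 (adjusted p = 0.181) and was not called. Tpx2, which activates Aurka on the spindle, Prc1, which bundles the midzone, and Cdca5 (sororin) had changes of -0.32, 0.16 and -0.11. Counts of Prc1 are shared with Rccd1. The annotated Cdca5 start lies in a region nearest to Zfpl1, which is not part of the Cdca5 values. The counted Cdca5 region, 393 bases from that start, also lies within 1 kb of Zfpl1.

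Of the 17 called loci 9 kept the call when any 1 library was left out: Cenpa, Birc5, Mad1l1, Bub1b, Nuf2, Incenp, Cenpc1, Cenpe and Cdk1. The other 8 lost it. Without the second PB3-Parental library the adjusted p was 0.0943 for Mad2l2, 0.0888 for Cenpf and 0.127 for Ccnb1, and without the first PB3-ERI-R library 0.102, 0.055 and 0.113. Plk1 was at 0.185 without the first PB3-Parental library and 0.378 without the first PB3-ERI-R library. Each of the 4 libraries of the 2 lines was needed for Mad2l1 (adjusted p 0.06 to 0.0845 without one), Plk4 (0.051 to 0.175) and Pttg1 (0.0585 to 0.168). Ccna2 lost its call without any of these or without either PB3-PAC-R library (0.0513 to 0.175). With scaling factors of single regions, 10 further loci were called, all higher, and Mad2l2 was not, at -0.38 (adjusted p = 0.12).

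**Figure D2:**
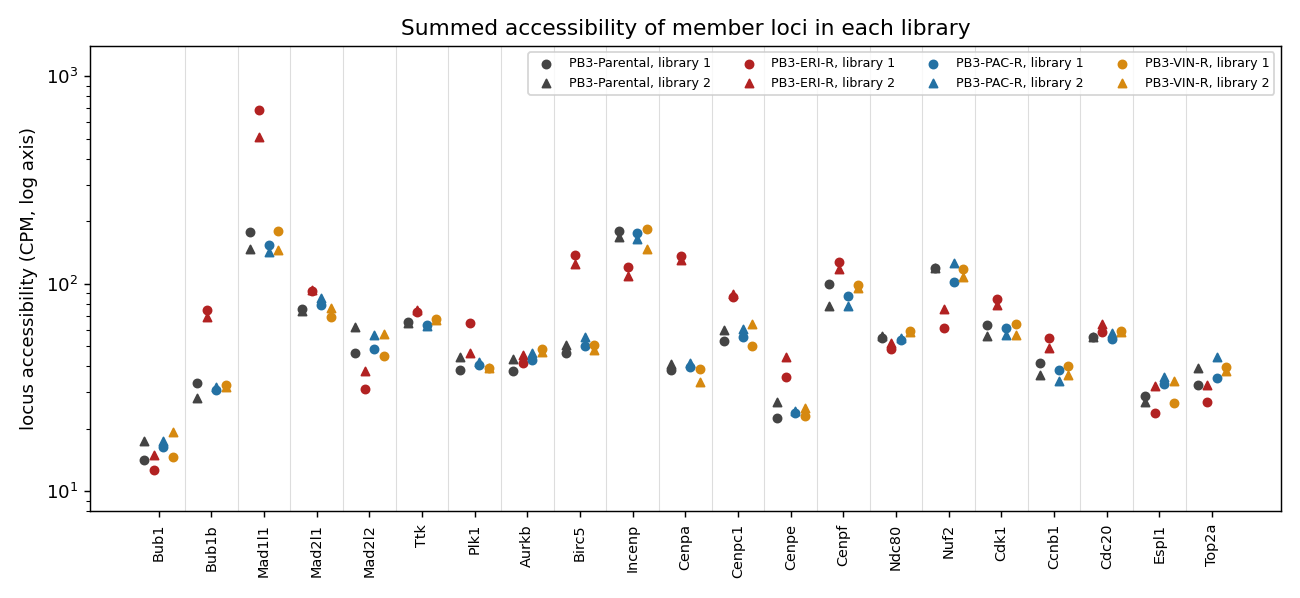
Summed CPM of 21 loci (log axis) in each of the 8 libraries, with colours for lines and circles or triangles for the first or second library. PB3-ERI-R stands apart at Mad1l1, Cenpa, Birc5, Bub1b and Nuf2, and the other 3 lines lie close together at these loci.

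Promoter and distal regions were then summed apart. Promoter sums differed in 7 of 37 genes, where 40.2% of all 10926 promoter sums were called (20.6% higher, 19.5% lower). Cenpa rose by 1.66 ± 0.11 (adjusted p = 1.21e-06), Birc5 by 1.35 ± 0.11 (adjusted p = 3.58e-06), Cenpc1 by 0.68 ± 0.14 (adjusted p = 0.00214), Cenpe by 0.60 ± 0.15 (adjusted p = 0.00694) and Cenpf by 0.51 ± 0.13 (adjusted p = 0.0109). Incenp (-0.67 ± 0.09, adjusted p = 0.000182) and Mad2l2 (-0.74 ± 0.16, adjusted p = 0.00388) fell. Mad2l1, Plk1, Plk4, Ccnb1 and Ccna2 have 1 region each, so their promoter sums hold the same counts as their loci. They were called as loci but not as promoter sums, fitted and scaled among promoters (edgeR adjusted p 0.067 to 0.15). In 35 of 37 genes the promoter sum changed by less than 1 in log2. With scaling factors of single regions, which put the median of all promoter sums at 0.37, the count was 22, with 21 higher and 1 lower. It was 15 (12 higher, 3 lower) with replicate number as a block, and 12 (9 higher, 3 lower) with window medians, described below, as offsets. The share of all promoter sums called is not given here for any of these settings.

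Distal sums of the 12 genes that have them differed in 9, 6 higher and 3 lower, where 74.8% of all 10709 distal sums were called (36.1% higher, 38.6% lower). In 9 of the 12 the distal change was larger in size than the promoter change, each from its own fit. The share of all genes with both classes where this held was not counted, so the 9 have no background. The test of the difference between the 2 classes within a gene called 9 of 12, beside 69.9% of 6665 genes. In 6 the distal change lay above the promoter change and in 3 below it, beside 36% and 33.9% of the 6665. Among the 6, Incenp fell in both classes. Changes of the sums, as log2 values, were as follows. In Bub1b the distal sum went from 12 and 8.15 CPM on the scale of distal sums to 114 and 84.7, a rise of 3.30 ± 0.24 (adjusted p = 6.62e-08), while its promoter sum changed by -0.10 ± 0.17 (adjusted p = 0.678). The difference of the changes was -3.56 ± 0.33 (adjusted p = 8.56e-07). Mad1l1 gained 2.50 ± 0.14 in distal regions, and the change at its inner promoter was 0.42 ± 0.17 (adjusted p = 0.0731). The difference was -2.19 ± 0.17 (adjusted p = 1.88e-07).

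Cdk1 gained 1.96 ± 0.20 in distal regions and its promoter changed by -0.10 ± 0.13. Its distal sum rested mostly on 1 region, chr10:69398550-69399169, 45.6 kb from the gene, which measured 4.58 and 6.19 CPM in PB3-Parental and 32.0 and 26.0 in PB3-ERI-R. Without regions beyond 10 kb of the gene the Cdk1 locus changed by -0.02 (adjusted p = 0.892). Pttg1 gained 1.47 ± 0.27 in its only distal region, with a promoter change of 0.11 ± 0.20 (adjusted p = 0.691). Its locus, too, lost the call without regions beyond 10 kb, at 0.19 (adjusted p = 0.487). The opposite held for Tpx2, with a distal loss of -2.40 ± 0.30 and a promoter change of 0.01 ± 0.13, for Nuf2 (-0.93 ± 0.15 and 0.46 ± 0.23) and for Top2a (-2.04 ± 0.51 and -0.28 ± 0.17). Top2a's distal region was weak, at 2.95 and 1.60 CPM in PB3-Parental and 0.279 and 0.886 in PB3-ERI-R. Aurkb and Incenp passed with smaller differences of -0.70 ± 0.24 (adjusted p = 0.0212) and -0.44 ± 0.18 (adjusted p = 0.0449). These depend on the fit, which scaled promoter and distal sums apart. In raw counts the promoter share of Aurkb was 76.35% in PB3-Parental and 73.53% in PB3-ERI-R. That of Incenp was 53.03% and 53.55%, so its counts did not move towards distal regions.

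**Figure D3:**
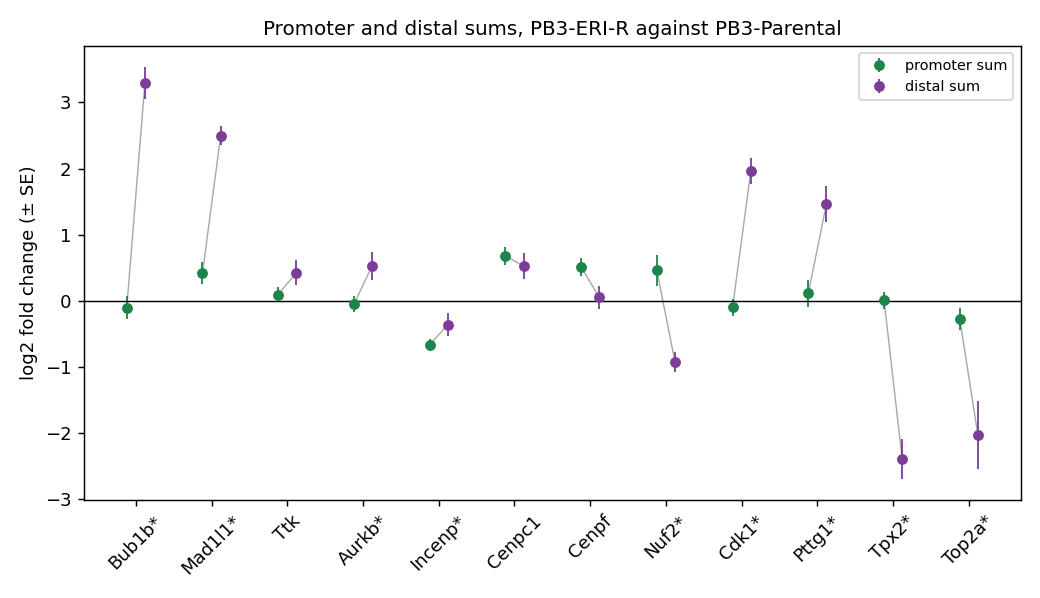
Log2 fold change (± SE) of promoter sums (green) and distal sums (purple) in PB3-ERI-R against PB3-Parental for the 12 genes with both, with an asterisk where the 2 changes differed at adjusted p under 0.05. Promoter values stay between -0.67 and 0.68, and distal values run from -2.40 (Tpx2) to 3.30 (Bub1b).

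Of single regions, 50 of 78 were called, 38 higher and 12 lower, where 73% of all 57415 tested regions were (35.4% higher, 37.6% lower). On the scaling of loci the count was 39, with 24 higher and 15 lower. The share of all regions called on that scaling is not given here. Of the 41 promoter regions 23 were called higher and 2 lower, beside 44.3% higher and 9.5% lower among all 12637 promoter regions. The 10 regions with the largest called changes and an average log2 CPM of at least 2 lay at 4 genes, and 5 of them inside Mad1l1. Of these, chr5:140064504-140065251 went from 3.01 and 2.53 CPM in PB3-Parental to 127 and 88.5 in PB3-ERI-R, with 1.73 and 1.37 in PB3-PAC-R and 1.87 and 1.96 in PB3-VIN-R. Its log2 fold change was 5.28 ± 0.24. The other 4 gained 6.66, 5.38, 3.75 and 2.86, and all 5 overlapped a deposited peak in PB3-ERI-R only.

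Within the same gene, chr5:140149344-140149761 fell by 2.21 on the log2 scale and lost its peak in PB3-ERI-R, so regions of Mad1l1 moved both ways. The Bub1b region chr2:118586031-118586488, 11.7 kb from the gene, held 4 and 7 counts in PB3-Parental and 392 and 217 in PB3-ERI-R, a gain of 6.41 ± 0.41. Without regions beyond 10 kb the Bub1b locus rose by 0.47 (adjusted p = 0.0147) in place of 1.22. At Nuf2 3 regions were nearly closed in PB3-ERI-R. The one at chr1:169555668-169556103, 24.2 kb away, went from 31.4 and 28.3 CPM to 0.372 and 0.775, a change of -5.72 ± 0.32. A region inside the gene (chr1:169526017-169526281) held 265 counts in both PB3-Parental libraries together and 3 in those of PB3-ERI-R, 55.3-fold fewer relative to library size, with a 95% counting interval of 18.7 to 270.

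The Nuf2 region nearest to the 50 kb limit, at 47.9 kb, changed by -4.15 ± 0.37. A region just outside the limit, at 60.1 kb, measured 5.84 and 3.06 CPM in PB3-Parental and 0.650 and 0.332 in PB3-ERI-R, and one at 56.5 kb from Cenpe measured 9.33 and 18.8 against 15.0 and 18.9. Without regions beyond 10 kb Nuf2 changed by -0.15 (adjusted p = 0.556). The last of the 10 was a region at 1 end of Cdc25c, at 5.66 and 4.46 CPM in PB3-Parental and 0.372 and 0.775 in PB3-ERI-R. The promoter region at the other end of that gene rose by 0.59 ± 0.14.

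**Figure D4:**
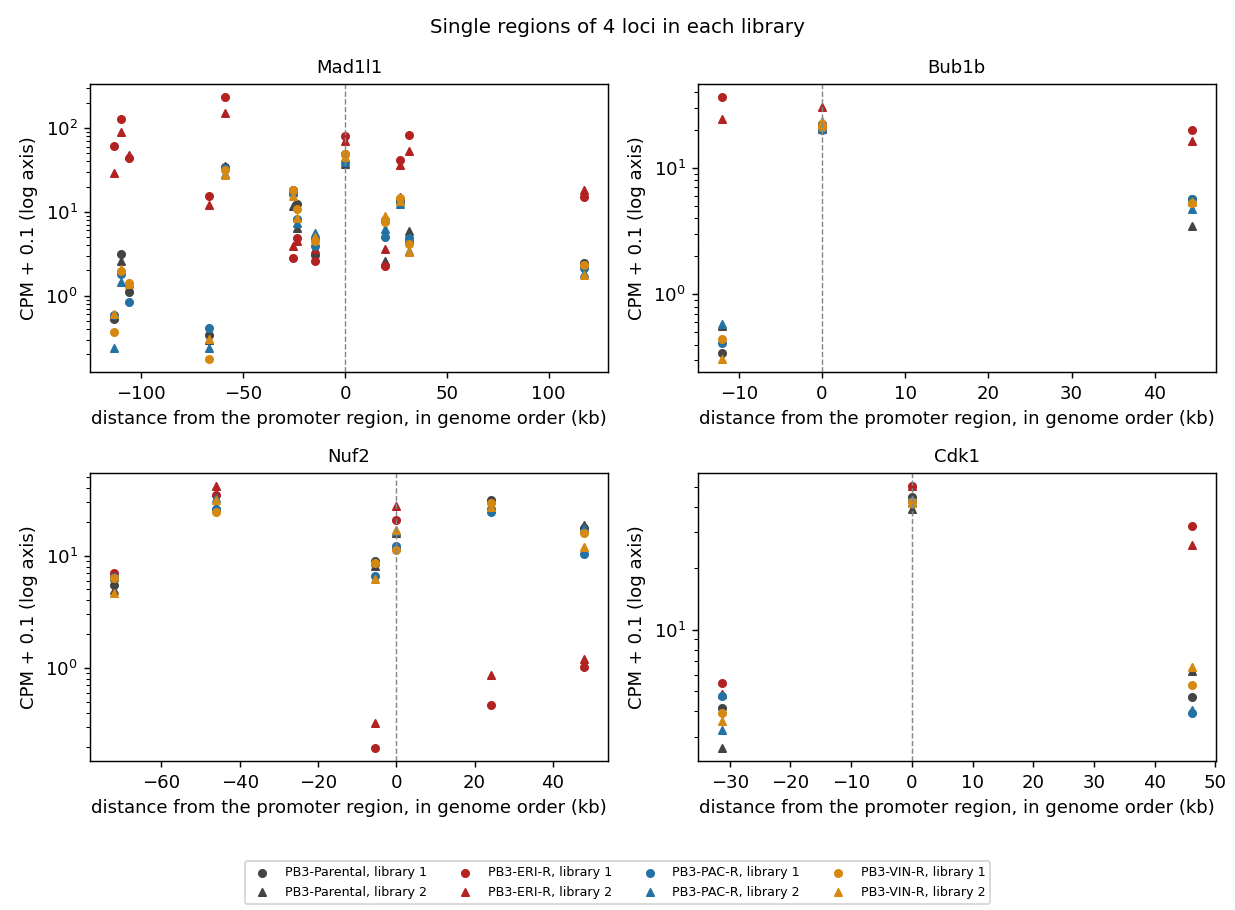
CPM + 0.1 (log axis) of each region of Mad1l1, Bub1b, Nuf2 and Cdk1 in the 8 libraries, placed by distance from the promoter region in genome order (dashed line at 0). Regions high in PB3-ERI-R alone lie on both sides of the Mad1l1 and Bub1b promoters, and regions low in PB3-ERI-R alone flank the Nuf2 promoter.

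Most of the largest locus gains lay in stretches where neighbours gained as well. For each locus the median log2 difference of all regions in its 5 Mb window was computed. Of the 4 loci that changed by at least 1, Mad1l1, Cenpa and Birc5 lay in windows with medians of 1.92, 1.64 and 1.42, and Bub1b in one with 0.15. A promoter region of Cenpe (chr3:135213094-135213320), singled out after its value was seen, gained 1.95 ± 0.26 in a window with a median of 0.09. In the Cenpa window 70 of 72 promoter regions of other genes were higher in PB3-ERI-R, with a median of 1.65. For Birc5 these were 92 of 97 (median 1.35), and for Mad1l1 47 of 47 (median 1.82). Over all promoter regions the median was 0.36. With window medians as offsets, Cenpa changed by 0.11 (adjusted p = 0.434), Birc5 by 0.01 (adjusted p = 0.932) and Mad1l1 by -0.05 (adjusted p = 0.834). In all 9 of the 17 calls were lost in this way, those of Incenp, Mad2l2, Cenpf, Ccnb1, Ccna2 and Plk4 as well (adjusted p 0.0512 to 0.932 over the 9). The medians are on the scale of single regions, the changes on that of loci, where PB3-ERI-R comes out lower. On the scale of single regions Cenpa and Birc5, with 1 region each, gained 2.03 and 1.72, above their window medians of 1.64 and 1.42. Calls with both on 1 scale were not tested. With the offsets another 6 loci were newly called, Ndc80, Spc25, Cdc25c and Prc1 higher and Spc24 and Tpx2 lower. These calls mix the 2 scales as well. Spc24, at -0.26 with offsets, changed by -0.01 on the scale of loci, in a window at 0.25 on that of single regions. Of the 6, those called higher have promoter regions only, while the window medians mix both kinds. In their windows promoter regions of other genes had medians of 0.02, 0.34, 0.40 and 0.36. Regions away from promoters had medians of -1.84, -1.78, -0.88 and -0.93 there. DNA dose was not analysed here, and its part in the gains was not tested.

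Several Mad1l1 regions differed from their window. The inner promoter region gained 0.79 ± 0.16 on the scale of single regions, beside a median of 1.82 for the other promoter regions there. The distal regions chr5:140149344-140149761 and chr5:140151308-140151621 fell by 2.21 and 1.02, where other regions away from promoters had a median of 1.99. Bub1b kept its call with window offsets, at 1.07, and under each of the other 15 alternatives, over which its change ran from 0.47 to 1.5. At the other end, 7 loci lay in windows with medians of -0.5 or lower. Of these 5 had a positive change and 4 were called higher, namely Mad2l1, Cenpc1, Cdk1 and Pttg1, in windows at -1.27, -0.63, -0.71 and -1.58. The medians of promoter regions of other genes in those windows were 0.37, 0.54, -0.05 and 0.43, so the low window values came from regions away from promoters. Around Mad2l2 and Incenp, both lower in PB3-ERI-R as loci, the other promoter regions were lower too, with medians of -0.48 and -0.28. All these medians are on the scale of single regions. On it the Mad2l2 region was at -0.38 and not called, and the Incenp promoter region at -0.30.

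**Figure D5:**
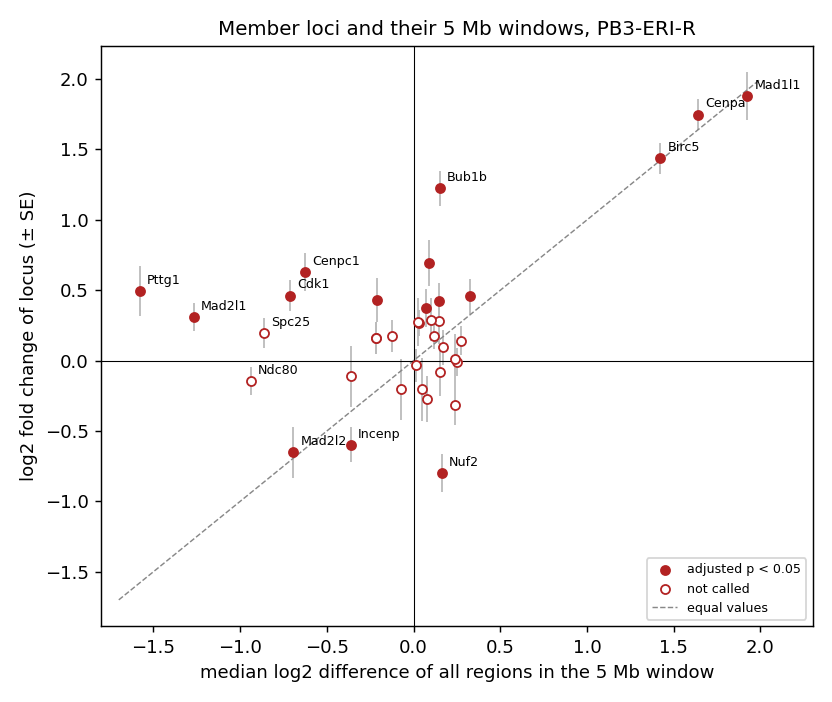
Log2 fold change of each locus in PB3-ERI-R (y axis, ± SE) against the median log2 difference of all regions in its 5 Mb window (x axis), with filled points for adjusted p under 0.05 and a dashed line of equal values. Cenpa, Birc5 and Mad1l1 sit on that line near 1.4 to 1.9, and Bub1b and Nuf2 lie away from it in windows near 0. The y axis is on the scale of loci and the x axis on that of single regions. The line therefore does not mark equal change on 1 scale.

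In PB3-PAC-R and PB3-VIN-R none of the 37 loci passed the edgeR test against PB3-Parental, beside 0.114% and 0.648% of all loci. DESeq2 called none either, and none had an unadjusted p under 0.05. Log2 fold changes ran from -0.22 (Cdca5) to 0.30 (Espl1) in PB3-PAC-R and from -0.19 (Cdca5) to 0.22 (Aurkb) in PB3-VIN-R. Standard errors were at most 0.22. Neither promoter sums (backgrounds 0.101% and 0.156%) nor distal sums (0.215% and 0.971%) gave a call among these genes. Before adjustment, 2 distal sums in PB3-VIN-R had p under 0.05. The checkpoint loci illustrate the size: Mad1l1 changed by -0.14 and 0.00 in the 2 lines, Bub1b by 0.02 and 0.07, and Mad2l1 by 0.14 and -0.04. A change below the spread of 2 libraries was not detectable at this depth.

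The resistant lines were also compared with each other. Against PB3-PAC-R, PB3-ERI-R differed at 19 loci (15 higher, 4 lower) where 60.3% of all loci were called (29.4% higher, 30.9% lower). Against PB3-VIN-R it differed at 18 (15 higher, 3 lower), where 58.7% were (28.2% higher, 30.5% lower). Both tests share the PB3-ERI-R libraries with each other and with the comparison above. At 15 loci, 12 higher and 3 lower, PB3-ERI-R differed from both lines in the same direction. The share of all loci that did so was not counted, so the 15 are not set against a background. Mad1l1 differed by 2.01 ± 0.17 from PB3-PAC-R and by 1.88 ± 0.17 from PB3-VIN-R, Cenpa by 1.72 and 1.88, Birc5 by 1.31 and 1.41, and Bub1b by 1.20 and 1.16. Nuf2 was lower by both comparisons, at -0.74 and -0.72. Between PB3-VIN-R and PB3-PAC-R no member locus was called by edgeR, before or after adjustment, beside 0.0334% of all loci.

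Other genes of the pathway, from 6 lists, moved both ways in PB3-ERI-R, with 49 of 107 loci called (45.8%, beside 58.3% of all loci). Of the anaphase-promoting complex 3 of 16 loci rose and 3 fell, with Cdc26, a small subunit, at -2.02 ± 0.21 and Anapc7 at 1.56 ± 0.19. Among cohesin and shugoshin genes 3 of 14 rose and 6 fell. Rad21, the cohesin subunit that separase cuts, was at 0.859 and 1.40 CPM in PB3-Parental and 72.3 and 54.1 in PB3-ERI-R, a rise of 5.81 ± 0.32. These values cover only the regions assigned to Rad21. Whether a region at a gene's start was assigned to a neighbour was not checked for the listed genes. The low values therefore do not show that the Rad21 promoter was closed in PB3-Parental. Pds5b, a cohesin regulator, rose by 1.95 in a window with a median of 3.12. Of 8 condensin loci Ncapg alone was called, at 1.41 ± 0.15.

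Of 26 other kinetochore and centromere loci 3 rose and 3 fell. Trip13, the ATPase that takes the checkpoint complex apart, went from 44.7 and 47.3 CPM to 264 and 220 and rose by 2.40 ± 0.11 in a window with a median of 0.19. Cenpi rose by 1.44 ± 0.14 in a window at 1.54. Among 20 other mitotic kinases and phosphatases 5 rose and 8 fell (65%, near the 58.3% of all loci), with Bora, the activator of Aurka towards Plk1, at -3.97 ± 0.31 and Ppp2r2a at -1.24 ± 0.11. Of 23 genes of cell cycle transcription 5 rose and 9 fell (60.9%, near the same background), with E2f8, a repressor of cell cycle genes, at -1.63 ± 0.11 and Rbl1 (p107) at -1.01 ± 0.12. In PB3-PAC-R and PB3-VIN-R no locus of the 6 lists was called by edgeR, with 1 and 5 at an unadjusted p under 0.05; DESeq2 was not run on these lists.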

How the data were processed

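ATAC-seq libraries of 4 PB3 lines, 2 each, were grouped by the cell line in the labels. The submitters' processing notes name Bowtie2 2.2.6, featureCounts, MACS2 2.1.1, Picard, deepTools, cutadapt 1.9.1 and bcl2fastq 2.20.0.422, and the builds mm10 and GRCm38. Settings were not given in the sources used here. Raw counts per consensus region, with no normalization, and 1 peak list per line were deposited by the authors. The deposited peak lists give each peak's other values, its start and end, and a fold enrichment (ratio) at its summit, used here only to mark peaks.

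Regions were assigned to protein-coding gene bodies of RefSeq GRCm38.p6 (the files' build) within 50 kb. Starts came from the RefSeq promoter table. Of the 40 members 33 were in it; Aurkb, Ccna2, Cdc25c, Incenp, Spc24, Tpx2 and Zwilch were not, so both gene ends were used. Counts of loci, promoter sums, distal sums and single regions were each fitted over all features with edgeR 4.0.16 (R 4.3.3): filterByExpr, TMM, quasi-likelihood test with 1 term per line, Benjamini-Hochberg, threshold 0.05. CPM of different tables are on different scales. SE is the change divided by the square root of F. The difference of promoter and distal changes was an interaction in 1 fit with library as a block. In it the promoter and distal sums of a library had separate totals and TMM factors. The scripts were tested on simulated data. Window medians use 5 Mb windows with at least 20 regions and TMM factors of single regions. As offsets they were added to the factors of each fit, which were on another scale for loci and promoter sums. Intervals are exact binomial and cover counting error only.

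Genes named with values in every library were the 12 loci of smallest adjusted p (PB3-ERI-R against PB3-Parental) and 12 set whatever their values; single regions were the 10 largest called changes whose average log2 CPM reached 2, promoters shown were the 3 of smallest adjusted p in the promoter or promoter-to-distal test and 3 set ones, and other pathway genes were up to 2 a list of smallest adjusted p. The members, lists and rules were chosen with earlier results of these data known. The columns carry replicate numbers only. Alternatives were DESeq2 1.42.0, library size scaling, loess offsets, no filter, other distances, window offsets, a replicate block, leaving out each library and, chosen after seeing the data, scaling factors of another table.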

Additional observations from a re-analysis of the deposited data

Results flagged for a closer look

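PB3-ERI-R differed from the other resistant lines at many of these loci, by the test of the difference between lines: 19 loci against PB3-PAC-R and 18 against PB3-VIN-R. Both comparisons share the PB3-ERI-R libraries, and most loci of the genome differ likewise. The share of all loci called in both was not counted. The 15 loci that differed from both lines in 1 direction are given here by their log2 difference to PB3-PAC-R, which is also the difference of the changes from PB3-Parental. Higher in PB3-ERI-R were Mad1l1 (2.01), Cenpa (1.72), Birc5 (1.31), Bub1b (1.20), Cenpe (0.72), Pttg1 (0.62), Cenpc1 (0.60), Cenpf (0.56), Ccnb1 (0.52), Cdk1 (0.48), Plk1 (0.43) and Ccna2 (0.30). Lower were Nuf2 (-0.74), Mad2l2 (-0.61) and Incenp (-0.57). With 2 libraries a line, no single library could be tested for standing apart from its group.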

How the results depend on the processing

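With 1 library left out, the count of called loci ran from 9 to 17 in PB3-ERI-R against PB3-Parental (10 without the second PB3-Parental library, 9 without the first PB3-ERI-R library), from 11 to 17 against PB3-PAC-R (12 without the first PB3-ERI-R library, 11 without the second PB3-PAC-R library) and from 11 to 16 against PB3-VIN-R (11 without the first PB3-ERI-R or the first PB3-VIN-R library). Promoter sums ran from 6 to 8, distal sums from 7 to 10, single regions from 39 to 50 and promoter-to-distal differences from 6 to 9. Scaling factors of single regions, chosen after seeing the data, gave 26 loci (24 higher, 2 lower) and 22 promoter sums. For none of the alternatives is the share of all features called given here. Window offsets gave 12 promoter sums, and changed the sign at 7 loci: Mad1l1 (-0.048), Mad2l2 (0.037), Ndc80 (0.80) and, called with neither, Aurkb, Cdc20, Cdca5 and Espl1; regions within 10 kb did so at Cdk1 (-0.023), where a far region was left out, and at Espl1, near 0 in both. Scaling factors of single regions turned the sign of further uncalled loci, such as Bub1. The window medians used as offsets are on that scale and the locus changes are not, so signs of small changes depend on it. In the other cases the cause was not tested. Replicate numbers are shared by label only: deviations of same-numbered libraries correlated at 0.151 to 0.511 over loci. With number as a block 15 promoter sums were called (12 higher, 3 lower) and 19 loci, with Tpx2 and Cdc25b added. The other counts stayed within 1.5 times of their value under every alternative run, and those of PB3-PAC-R and PB3-VIN-R against PB3-Parental stayed at 0. Few counts limit the precision at weak distal regions, such as that of Top2a.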
